A study of Mus musculus with 9 samples.

Results

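Glucocorticoids act through the glucocorticoid receptor, a transcription factor encoded by Nr3c1. The receptor and 7 genes known as its targets (Tsc22d3, Fkbp5, Sgk1, Klf9, Zbtb16, Ddit4 and Errfi1) were followed in mouse acute myeloid leukaemia (AML) cells grown in vitro or taken from the bone marrow or lungs of recipient mice. The members were taken by gene symbol, 8 of the 55291 genes counted, and they were chosen by their CPM in the 3 groups, with results of these data known. Their levels and log2 changes are therefore given as a description, without p-values. Whether a member was called is stated to show how the fit placed it, and is no independent test, since the same CPM values chose the members. All 9 libraries came from AML cells of the genotype Trp53(R172H/delta), R172H being a missense change of the tumour suppressor p53. There were 3 libraries from in vitro cultures, 3 from bone marrow and 3 from lung, and per the series' design text both tissues were those of wild-type (WT) recipients. The labels give no age, sex, time after transfer, steroid treatment or composition of the medium, and they do not say whether the 3 libraries of a group are separate cultures or mice. The p-values given for other genes then measure only the spread between these samples, which may be technical.

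The receptor waits in the cytoplasm in a complex with the chaperone HSP90 and immunophilins. Once it binds cortisol or corticosterone it enters the nucleus, binds DNA at paired copies of a short element and recruits coactivators. Among the genes it induces are its own inhibitor Fkbp5 and the mediator Tsc22d3, known as GILZ. In blood cells glucocorticoids kill many lymphoid cells, draw neutrophils into the circulation and support the expansion of erythroid progenitors under stress. Most of these target genes also answer to other inputs, such as growth factors, hypoxia or amino acid shortage.

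Depth was between 27485111 and 38761363 counted reads per library, so that 1 read was worth 0.0249 to 0.0371 CPM (counts over the scaled library size). All 8 erythroid markers examined were above 1 CPM in each group, with Gata1, an erythroid transcription factor, at 382 ± 5.9 CPM in culture (SD, n = 3). Of 10 markers of myeloid blasts, Kit was abundant in culture (1170 ± 42.7 CPM, SD, n = 3) while Cebpa and Cd33 had 0 reads there. RNA of other cells was present in the tissue libraries. The 6 lung epithelial markers summed to 79.9, 37.2 and 13.8 CPM in lung replicates 1 to 3 and to at most 0.213 CPM elsewhere. The 6 endothelial markers summed to 31.1, 8.91 and 11.2 CPM in lung and to 1.69 to 3.03 CPM elsewhere. The 6 neutrophil markers summed to 295, 528 and 1830 CPM in bone marrow, to 73.7, 9.49 and 10.4 CPM in lung and to at most 2.31 CPM in culture. Macrophage markers summed to 6.57 to 12.1 CPM in bone marrow and 7.24 to 14 CPM in lung, T cell markers to at most 2.21 CPM in any library and NK cell markers to at most 4.02 CPM. B cell markers summed to 11 CPM in bone marrow replicate 3 and to at most 4.71 CPM elsewhere. The fibroblast list summed to 141 to 267 CPM in all 3 groups and was led by Col1a2, at 217 CPM in culture itself. Its members Col1a1, Col3a1, Lum and Pdgfra, all at most 1.11 CPM in any group mean, had their highest mean in lung. Pdgfra had 0 reads in culture and bone marrow and stood at 0.568 CPM in lung. Lung replicate 1 and bone marrow replicate 3 thus carried the most RNA of other cells of their groups, and the values of members and of named genes that turn on them are also given without them. In bulk RNA, fewer cells expressing a gene and less RNA per cell cannot be told apart.

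**Figure D1:**
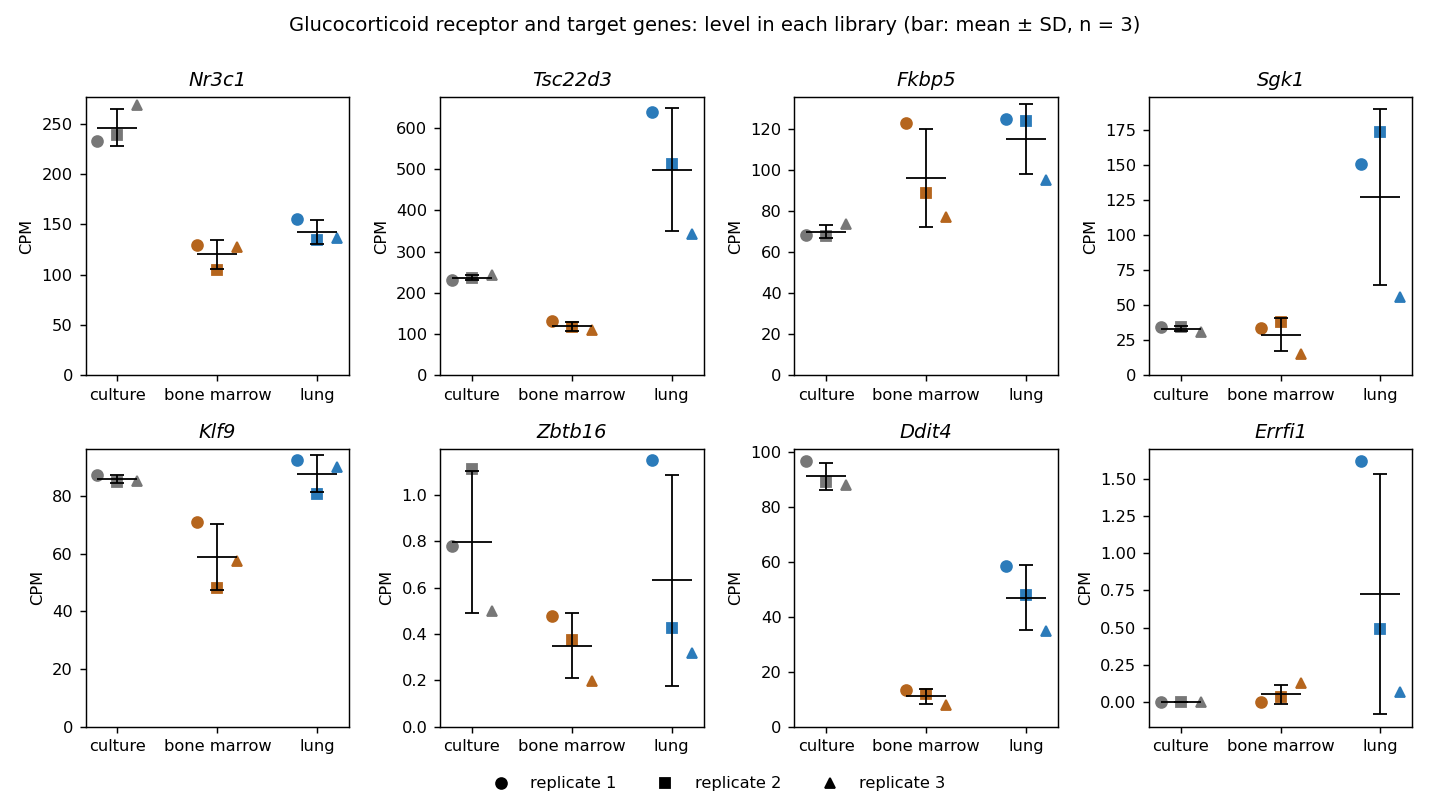
Level of each of the 8 genes (CPM, linear axis from 0) in the 3 libraries of each group, with the group mean and SD (n = 3) as a horizontal line and bar and the replicate number as the symbol. Nr3c1 was highest in culture, Tsc22d3 and Sgk1 were highest in lung, and Ddit4 was lowest in bone marrow.

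Nr3c1 itself was highest in culture and lower in both tissues. The gene lies on chromosome 18 from 39410545 to 39519421 on the minus strand (GRCm38, as are all positions here). It stood at 233, 239 and 268 CPM in culture, at 129, 104 and 127 CPM in bone marrow and at 155, 134 and 136 CPM in lung. No tissue library reached the lowest culture library, and the 3 lung libraries were all above the 3 of bone marrow by a small margin. Means were 246 ± 18.8, 120 ± 14.2 and 142 ± 11.8 CPM (SD, n = 3). On the log2 scale bone marrow was -1.04 from culture (SE 0.10), lung was -0.80 from culture (SE 0.10) and lung was 0.24 above bone marrow (SE 0.10, 95% interval 0.03 to 0.46). The last difference was not called, which here means past a Benjamini-Hochberg adjusted p of 0.05 in edgeR's quasi-likelihood fit over all 15066 genes tested. It was called when the replicate number entered as a block in a fit of the 6 tissue libraries alone (0.24, SE 0.09), and without bone marrow replicate 1 (0.30, SE 0.10). The block was chosen from these same counts, and the labels state no pairing.

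Fkbp5, the immunophilin that lowers the receptor's affinity for hormone and is induced by it, was the tested member with higher levels in both tissues than in culture. It lies on chromosome 17 from 28399094 to 28517527 on the minus strand. Culture libraries held 68.2, 67.9 and 73.9 CPM, bone marrow libraries 123, 88.7 and 77 CPM and lung libraries 125, 124 and 95 CPM. All 6 tissue libraries exceeded all 3 culture libraries, and bone marrow and lung overlapped. The log2 change was 0.46 in bone marrow (SE 0.16) and 0.72 in lung (SE 0.16) against culture, and 0.26 between lung and bone marrow (SE 0.16, 95% interval -0.09 to 0.60). The difference between bone marrow and culture leaned on bone marrow replicate 1, without which it was 0.25 (SE 0.12) and no longer called, and its call was also lost without any 1 of the culture replicates (0.42, 0.42 and 0.49). Without that library the difference between lung and bone marrow was 0.47 (SE 0.12) and was called, as it was in the blocked fit of the 6 tissue libraries (0.27, SE 0.10).

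Fkbp4 encodes the immunophilin that takes the place of Fkbp5 in the receptor complex when hormone binds. The ratio of Fkbp5 to Fkbp4 reads was 0.155, 0.15 and 0.159 in culture, 0.239, 0.206 and 0.14 in bone marrow and 0.241, 0.242 and 0.131 in lung. Replicate 3 of each tissue was below all culture libraries in this ratio and the other 4 tissue libraries were above them. Fkbp4 stood at 439, 452 and 465 CPM in culture, 514, 431 and 551 CPM in bone marrow and 520, 515 and 728 CPM in lung. Replicate 3 was thus its highest library in both tissues, while Fkbp5 in replicate 3 (77 and 95 CPM) was above all culture libraries.

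Most of the chaperone genes tested rose in the tissues. Of 12 genes of chaperones and their partners, 7 rose and 0 fell in bone marrow against culture. In lung against culture 9 rose and 0 fell. Over all 15066 genes tested, 30.7% rose and 29.8% fell in bone marrow against culture, and 27.9% rose and 27.0% fell in lung against culture. The list's median log2 change was 0.32 in bone marrow and 0.40 in lung, where the median over all genes was 0.05 and 0.03. Hspa8, the constitutive HSP70, had the largest change, from 440 ± 27.1 CPM in culture to 1340 ± 278 CPM in bone marrow (SD, n = 3; log2 change 1.61, SE 0.18, adjusted p = 2.2e-05) and 1570 ± 377 CPM in lung (1.84, SE 0.18, adjusted p = 1.1e-05). Ahsa1, the activator of HSP90's ATPase, rose by 0.74 (SE 0.11) in bone marrow and 0.66 (SE 0.11) in lung on the log2 scale, with adjusted p = 7.4e-05 and 2.3e-04. Dnaja1, a J protein of the same machinery, was the 1 gene of the list called between lung and bone marrow (0.34, SE 0.10, adjusted p = 0.027). Without lung replicate 1 and bone marrow replicate 3, 3 genes were called higher and 1 lower. The share of all genes in that fit is not given here. With all 9 libraries 14.2% of all genes were called higher in lung than in bone marrow and 11.1% lower. Upper-quartile scaling turned that majority, with 1796 genes higher and 2088 lower against 2138 and 1668.

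Tsc22d3 encodes GILZ, a leucine zipper protein that restrains NF-kB and AP-1 and is a common readout of receptor activity in blood cells. It lies on chromosome X from 140539528 to 140600659 on the minus strand. Of its 3 RefSeq start windows (250 bases before to 50 after a start, GRCm38.p6), 1 holds the receptor half-site AGAACA on either strand, and it is shown for that reason. It spans chrX:140600473-140600772, is read on the minus strand, and the capitals mark the half-site in reverse complement, starting at position -185 from the start base:

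Tsc22d3 window 3: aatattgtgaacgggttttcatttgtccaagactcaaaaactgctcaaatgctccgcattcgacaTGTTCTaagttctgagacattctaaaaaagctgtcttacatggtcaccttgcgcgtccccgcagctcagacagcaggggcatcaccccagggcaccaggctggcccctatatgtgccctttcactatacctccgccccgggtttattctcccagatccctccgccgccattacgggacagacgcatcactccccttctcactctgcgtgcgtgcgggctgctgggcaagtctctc

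Tsc22d3 had opposite changes in the 2 tissues. Culture libraries stood at 230, 237 and 244 CPM, bone marrow libraries at 132, 116 and 110 CPM and lung libraries at 640, 513 and 342 CPM. The 3 groups did not overlap, and the lung libraries spread the most, with replicate 1 the highest. Means were 237 ± 6.69, 119 ± 11.1 and 499 ± 149 CPM (SD, n = 3). The log2 change was -0.99 in bone marrow (SE 0.18) and 1.07 in lung (SE 0.18) against culture. Both comparisons share the culture libraries. Lung was above bone marrow by 2.06 (SE 0.19), and by 1.79 (SE 0.15) without lung replicate 1 and bone marrow replicate 3. Lung exceeded bone marrow 4.87, 4.41 and 3.12-fold in replicates 1, 2 and 3.

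Sgk1, the serum and glucocorticoid regulated kinase of ion channels and FOXO factors, was also highest in lung, but its libraries spread widely. The gene lies on chromosome 10 from 21882184 to 21999903 on the plus strand. RefSeq gives it 6 start windows, of which 3 hold the half-site. Window 5 (chr10:21993640-21993939, plus strand, GRCm38.p6) is shown because it holds the full palindrome, AGAACA and TGTTCT separated by 3 bases, which only 3 of 32851 windows in the RefSeq table do (0.00913%). Those 3 windows belong to Sgk1, Acnat2 and Gm35041. The capitals mark half-sites on either strand, at positions -242, -189 and -180, of which the last 2 make the palindrome:

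Sgk1 window 5: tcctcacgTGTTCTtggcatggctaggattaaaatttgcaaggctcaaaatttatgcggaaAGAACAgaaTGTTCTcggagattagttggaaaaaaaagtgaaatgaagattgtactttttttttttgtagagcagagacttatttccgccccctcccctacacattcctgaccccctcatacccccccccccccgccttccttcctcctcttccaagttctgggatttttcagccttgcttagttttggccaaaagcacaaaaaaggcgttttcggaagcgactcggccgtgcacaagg

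Culture libraries held 34.5, 34.2 and 31 CPM of Sgk1, bone marrow libraries 33.5, 37.7 and 15.2 CPM and lung libraries 151, 174 and 55.9 CPM. All lung libraries were above all others, bone marrow overlapped culture, and replicate 3 was the lowest in both tissues. The log2 change was 1.94 (SE 0.49) in lung against culture, 2.15 (SE 0.49) in lung against bone marrow and -0.21 (SE 0.49) in bone marrow against culture, with a 95% interval that crossed 0 for the last. The last value turned to 0.10 (SE 0.47) without bone marrow replicate 3. The call between lung and bone marrow was lost without lung replicate 1 (2.01, SE 0.57), without lung replicate 2 (1.84, SE 0.51), without lung replicate 1 and bone marrow replicate 3 together (1.70, SE 0.56) and in a fit of the 6 tissue libraries with no block (2.15, SE 0.60). The call against culture was lost without culture replicate 2 (1.93, SE 0.63). Taken by replicate number, lung exceeded bone marrow 4.52, 4.63 and 3.67-fold, and the blocked fit of those 6 libraries gave 2.09 (SE 0.10). That block was chosen from these same counts, so its smaller SE is no independent support.

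Klf9, a Kruppel-like repressor induced by both glucocorticoid and thyroid hormone, was lowest in bone marrow. It lies on chromosome 19 from 23141226 to 23168134 on the plus strand. It stood at 87.4, 84.9 and 85 CPM in culture, at 70.8, 48.1 and 57.4 CPM in bone marrow and at 92.4, 80.5 and 90.1 CPM in lung. Lung and culture overlapped, and all bone marrow libraries were below both. The log2 change was -0.55 (SE 0.12) in bone marrow against culture, 0.58 (SE 0.12) in lung against bone marrow and 0.03 (SE 0.12) in lung against culture. The last value moved around 0, with -0.002 as its value without culture replicate 2.

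Zbtb16, which encodes the transcriptional repressor PLZF, was near the limit of counting. It lies on chromosome 9 from 48654297 to 48836222 on the minus strand. Its 71, 36 and 67 reads in culture, bone marrow and lung corresponded to 0.779, 1.11 and 0.497 CPM in the culture libraries, to 0.476, 0.372 and 0.199 CPM in bone marrow and to 1.15, 0.424 and 0.316 CPM in lung. Bone marrow lay just below culture without overlap, and lung spanned both. The log2 change of -1.20 (SE 0.53) in bone marrow and -0.32 (SE 0.50) in lung against culture were not called. In bone marrow against culture the gene was called in 5 of 15 alternative fits, with values from -1.19 to -1.45. The 0.89 (SE 0.53) of lung over bone marrow, not called either, became -0.20 (SE 0.53) without lung replicate 1 and bone marrow replicate 3.

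Ddit4 encodes REDD1, an inhibitor of the kinase complex mTORC1 that glucocorticoids, hypoxia, p53 and the stress factor ATF4 all induce. It lies on chromosome 10 from 59949669 to 59951834 on the minus strand. Its 1 RefSeq start window (chr10:59951721-59952020, minus strand, GRCm38.p6) is shown because it holds no receptor half-site but 1 copy of ACGTG, the core bound by hypoxia-inducible factors, in capitals at position -187. This core was in 5 of the 14 windows of the members and in 19.6% of all windows:

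Ddit4 window 1: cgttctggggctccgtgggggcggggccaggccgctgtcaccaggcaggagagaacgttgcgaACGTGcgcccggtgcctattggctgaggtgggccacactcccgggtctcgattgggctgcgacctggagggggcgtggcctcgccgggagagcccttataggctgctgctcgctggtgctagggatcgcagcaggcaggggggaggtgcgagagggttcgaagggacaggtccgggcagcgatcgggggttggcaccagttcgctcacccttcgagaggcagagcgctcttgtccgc

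Ddit4 was the tested member with the largest change against culture, in bone marrow. Culture libraries held 96.7, 88.9 and 87.8 CPM, bone marrow libraries 13.3, 11.9 and 7.9 CPM and lung libraries 58.3, 47.8 and 34.8 CPM. The 3 groups did not overlap. The log2 change was -3.05 (SE 0.22) in bone marrow and -0.96 (SE 0.20) in lung against culture, and lung was 2.10 above bone marrow (SE 0.21). Without lung replicate 1 and bone marrow replicate 3 the last value was 1.71 (SE 0.14). Replicates 1, 2 and 3 gave lung to bone marrow ratios of 4.38, 4.03 and 4.4.

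Other genes induced by hypoxia or ATF4 also fell against culture, but between the tissues not all went with Ddit4. Of 9 tested, 9 fell and 0 rose in each tissue against culture, with a median log2 change of -3.88 in bone marrow and -2.56 in lung. Over all genes 29.8% fell in bone marrow and 27.0% in lung. Between lung and bone marrow 7 were higher and 2 lower in lung (14.2% and 11.1% of all genes). The 2 lower in lung, opposite to Ddit4, were Bnip3 (-0.58) and Ankrd37 (-0.93). Without lung replicate 1 and bone marrow replicate 3 Bnip3 was not called (-0.43, SE 0.18) and Ankrd37 was (-0.68, SE 0.20). Trib3, a pseudokinase target of ATF4, went from 187 CPM in culture to 6.15 CPM in bone marrow (log2 change -4.92, SE 0.15, adjusted p = 6.8e-11) and 25.7 CPM in lung (-2.86, SE 0.13, adjusted p = 2.5e-09). Vegfa, the angiogenic growth factor, went from 113 CPM to 1.25 CPM in bone marrow (-6.43, SE 0.44, adjusted p = 4.6e-06) and 9.64 CPM in lung (-3.55, SE 0.36, adjusted p = 6.4e-05). Atf4 itself was 0.89 higher in lung than in bone marrow (SE 0.13, adjusted p = 4.8e-04). Their part in the levels of Ddit4 was not tested.

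Errfi1, the feedback inhibitor of EGF receptors also known as MIG6, was counted almost solely in lung. It lies on chromosome 4 from 150853919 to 150868892 on the plus strand. Culture libraries held 0 reads, bone marrow libraries 0, 1 and 5 reads and lung libraries 62, 15 and 2 reads (1.62, 0.489 and 0.0633 CPM). The lung total of 79 reads was at least 23-fold the level that 3 reads over the culture group would give, and 13.9 times the 6 reads of bone marrow (95% counting interval 6.11 to 39.1, exact binomial). Lung replicate 1 held 62 of those reads. Without it the 17 reads of the other lung libraries were at least 7.97-fold the level of 3 reads over the culture group and 4.83 times bone marrow (95% counting interval 1.82 to 15). The interval covers counting error only and treats amplified reads as independent. Lung and bone marrow overlapped, and replicate 3 of lung was below replicate 3 of bone marrow. The lung reads followed the order of the lung epithelial sums given above, 79.9, 37.2 and 13.8 CPM, and the part of those cells in them was not tested. The gene did not reach the count needed for the test across genes.

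**Figure D2:**
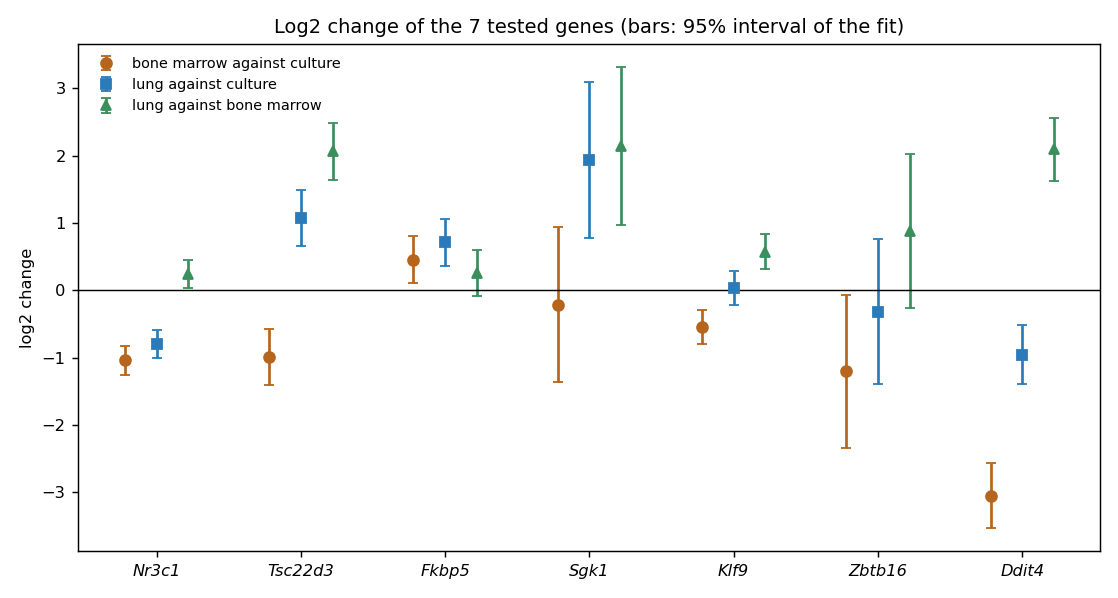
Log2 change of the 7 tested genes in the 3 comparisons, with 95% intervals of the fit as bars. Tsc22d3 is at -0.99 in bone marrow and 1.07 in lung against culture, and Ddit4 is at -3.05 and -0.96.

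Per kilobase of exon, Tsc22d3 was the highest member in each group, at 54.6, 27.5 and 115 CPM per kb in culture, bone marrow and lung. In culture it was followed by Ddit4 at 51.9 and Nr3c1 at 32.1 CPM per kb. In bone marrow Ddit4 came down to 6.29 CPM per kb, behind Nr3c1 at 15.6, Klf9 at 12.2 and Fkbp5 at 10.2 CPM per kb. In lung Ddit4 and Sgk1 had 26.8 and 25.9 CPM per kb, closer to each other than the libraries of Sgk1 were, and Nr3c1 and Klf9 had 18.5 and 18.2 CPM per kb. Zbtb16 and Errfi1 were at most 0.203 CPM per kb in any group.

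Counted over the members, 7 of 8 passed the filter on low counts. Between lung and bone marrow 4 were called higher in lung and 0 lower, where 14.2% and 11.1% of all genes were. Libraries did not overlap for 5 members, and 36.6% of all genes did not overlap in this comparison. In bone marrow against culture 1 member was called higher and 4 lower (30.7% and 29.8% of all genes), and 6 did not overlap (67.2% of all genes). In lung against culture 3 were called higher and 2 lower (27.9% and 27.0% of all genes), and 5 did not overlap (66.8% of all genes). The members were chosen with these contrasts known, so nothing is read from the counts.

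The order of replicates within a tissue was read from the same CPM values that chose the members. It is given as a description and is no independent test. All 7 tested members ranked replicates 1, 2 and 3 in the same order in bone marrow as in lung, while 25.1% of all 15066 tested genes did, and 27.8% of those with a tissue mean of at least 10 CPM. For Tsc22d3, Fkbp5, Zbtb16 and Ddit4 the order in both tissues was replicate 1 over 2 over 3. In lung this was also the order of the epithelial sums of 79.9, 37.2 and 13.8 CPM. Sgk1 had replicate 2 over 1 over 3, and Nr3c1 and Klf9 had replicate 1 over 3 over 2. In lung, replicate 3 was the lowest library for 6 of the 8 members and replicate 1 the highest for 7. In bone marrow, replicate 3 was the lowest for 5 and replicate 1 the highest for 6. Errfi1 was the member that differed in order. Some of these orders rest on near ties. Nr3c1 had 129 and 127 CPM in bone marrow replicates 1 and 3, and 134 and 136 CPM in lung replicates 2 and 3. Fkbp5 had 125 and 124 CPM in lung replicates 1 and 2. Zbtb16 had only 16, 12 and 8 reads in the bone marrow libraries. The labels do not say what a replicate number shares between tissues. The members are not independent of each other, and bone marrow replicate 3 and lung replicate 1 were also the libraries with the most RNA of other cells. The part of other cells in the shared order was not tested.

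**Figure D3:**
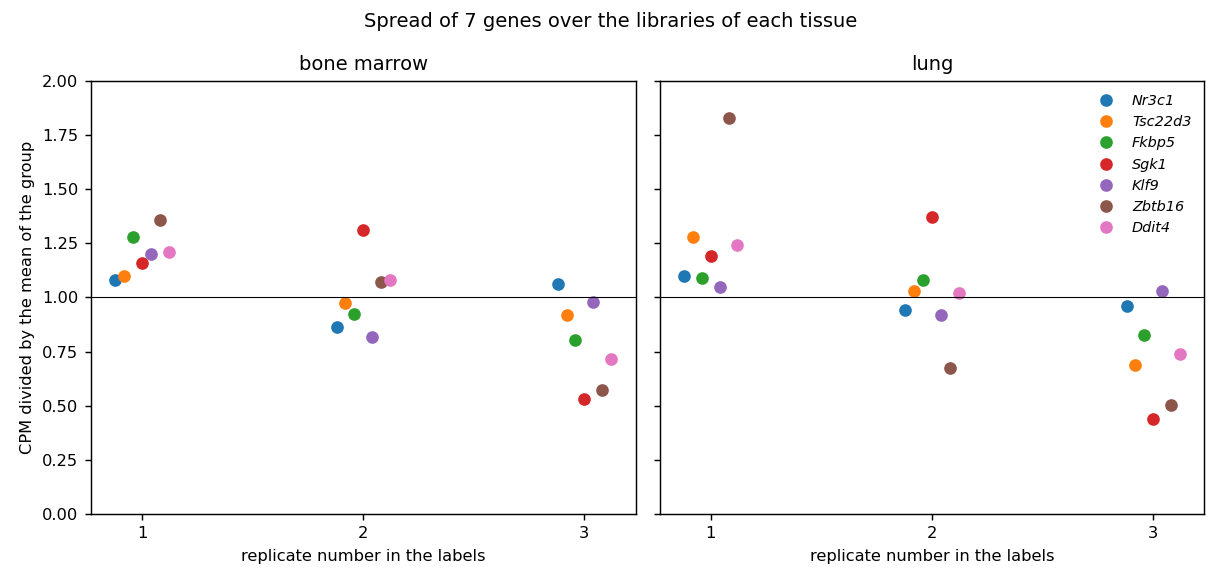
CPM of each of the 7 tested genes divided by its mean over the 3 libraries of the tissue, by replicate number in the labels, for bone marrow and lung; the line at 1 is the mean. Each gene has the same order of the 3 libraries in both panels, and Sgk1 at replicate 3 is at 0.529 and 0.44.

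Of the other genes known as induced by glucocorticoids, 4 of 27 tested (14.8%) had the same order in both tissues, against the 25.1% of all genes. Per1, a clock gene that the receptor induces directly, and Rhob were among the 4, and Dusp1 was not. Per1 stood in bone marrow at 68.4, 58.3 and 37.5 CPM (replicates 1 to 3) and at 85.4, 80.5 and 38.7 CPM in lung, with lung to bone marrow ratios of 1.25, 1.38 and 1.03. Dusp1 was at 4.61, 5.45 and 6.19 CPM in bone marrow and 351, 335 and 456 CPM in lung.

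Beyond the members, 34 other genes known as induced by glucocorticoids were examined, of which 27 were tested. Between lung and bone marrow 8 were higher in lung and 1 lower, with a median log2 change of 0.18 (all genes -0.01). Over all genes 14.2% were higher and 11.1% lower, against 29.6% and 3.7% of the list. Without lung replicate 1 and bone marrow replicate 3 the list had 9 higher and 3 lower of 26 tested. The share of all genes in that fit is not given here. In bone marrow against culture 8 rose and 12 fell (29.6% and 44.4% of the list, 30.7% and 29.8% of all genes; median -0.18, all genes 0.05). The share that rose there was near that of all genes. In lung against culture 12 rose and 7 fell (44.4% and 25.9% of the list, 27.9% and 27.0% of all genes; median 0.53, all genes 0.03). The medians were the same with Il7r, a cytokine receptor gene with 0 reads in culture, set to the level of 3 reads over that group. It was named after its values were seen. Per1 rose in both tissues, from 21.2 ± 2.7 CPM in culture to 54.7 ± 15.8 CPM in bone marrow (SD, n = 3; log2 change 1.37, SE 0.33, adjusted p = 0.007) and 68.2 ± 25.7 CPM in lung (1.69, SE 0.33, adjusted p = 0.0028). Anxa1, an anti-inflammatory phospholipid-binding protein, rose from 8.57 ± 0.201 CPM to 118 ± 52.1 CPM in bone marrow (3.78, SE 0.34) and 133 ± 32.1 CPM in lung (3.96, SE 0.34), both at adjusted p = 2.5e-05. Its highest libraries were bone marrow replicate 3 at 176 CPM and lung replicate 1 at 170 CPM, those with the most RNA of other cells. Without both libraries its changes were 3.37 (SE 0.12) and 3.75 (SE 0.12), and the 0.38 (SE 0.12) of lung over bone marrow passed (adjusted p = 0.034; 0.69 with all libraries). Cxcr4, the receptor that holds blood progenitors in the marrow, rose from 0.535 ± 0.331 CPM to 11.4 ± 1.25 CPM in bone marrow (4.45, SE 0.51, adjusted p = 4.8e-05) and 12.5 ± 6.79 CPM in lung (4.58, SE 0.51, adjusted p = 5e-05). Lung replicate 1 was its highest library at 20.4 CPM, and without it and bone marrow replicate 3 the changes were 4.40 (SE 0.33) and 4.05 (SE 0.33). Lcn2, the neutrophil granule protein lipocalin, was at 19.2, 30.8 and 100 CPM in bone marrow against at most 0.107 CPM in culture, in the order of the neutrophil sums of 295, 528 and 1830 CPM, and the part of those cells in its level was not tested. Its log2 change in bone marrow was 9.44 (SE 1.57, adjusted p = 0.0021), and 8.43 (SE 0.39) without lung replicate 1 and bone marrow replicate 3.

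Other genes of this list differed between the tissues, and Dusp1, Zfp36, Rgs2 and Rhob had opposite calls against culture. Dusp1, the phosphatase that switches off p38 and JNK, was at 381 ± 65.9 CPM in lung, 5.42 ± 0.79 CPM in bone marrow and 29.4 ± 2.18 CPM in culture (SD, n = 3). Its log2 change was -2.43 (SE 0.14, adjusted p = 1.8e-08) in bone marrow and 3.70 (SE 0.13, adjusted p = 7e-10) in lung against culture, and lung was 6.13 above bone marrow (SE 0.16, adjusted p = 3.4e-11). Zfp36, which destabilises cytokine mRNA, fell by 1.50 (SE 0.22, adjusted p = 1.4e-04) in bone marrow and rose by 1.39 (SE 0.21, adjusted p = 2e-04) in lung against culture. Rgs2, a brake on G protein signalling, fell by 1.80 (SE 0.31, adjusted p = 7.3e-04) and rose by 2.54 (SE 0.29, adjusted p = 5.4e-05). Nfkbia, the inhibitor of NF-kB, was at 266 ± 69.2 CPM in lung, 41.5 ± 9.69 CPM in bone marrow and 46 ± 1.87 CPM in culture (lung against bone marrow 2.68, SE 0.20, adjusted p = 2.5e-05). Cebpb, a myeloid transcription factor, fell by 3.30 (SE 0.46, adjusted p = 2.9e-04) in bone marrow and by 1.59 (SE 0.42, adjusted p = 0.012) in lung against culture.

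**Figure D4:**
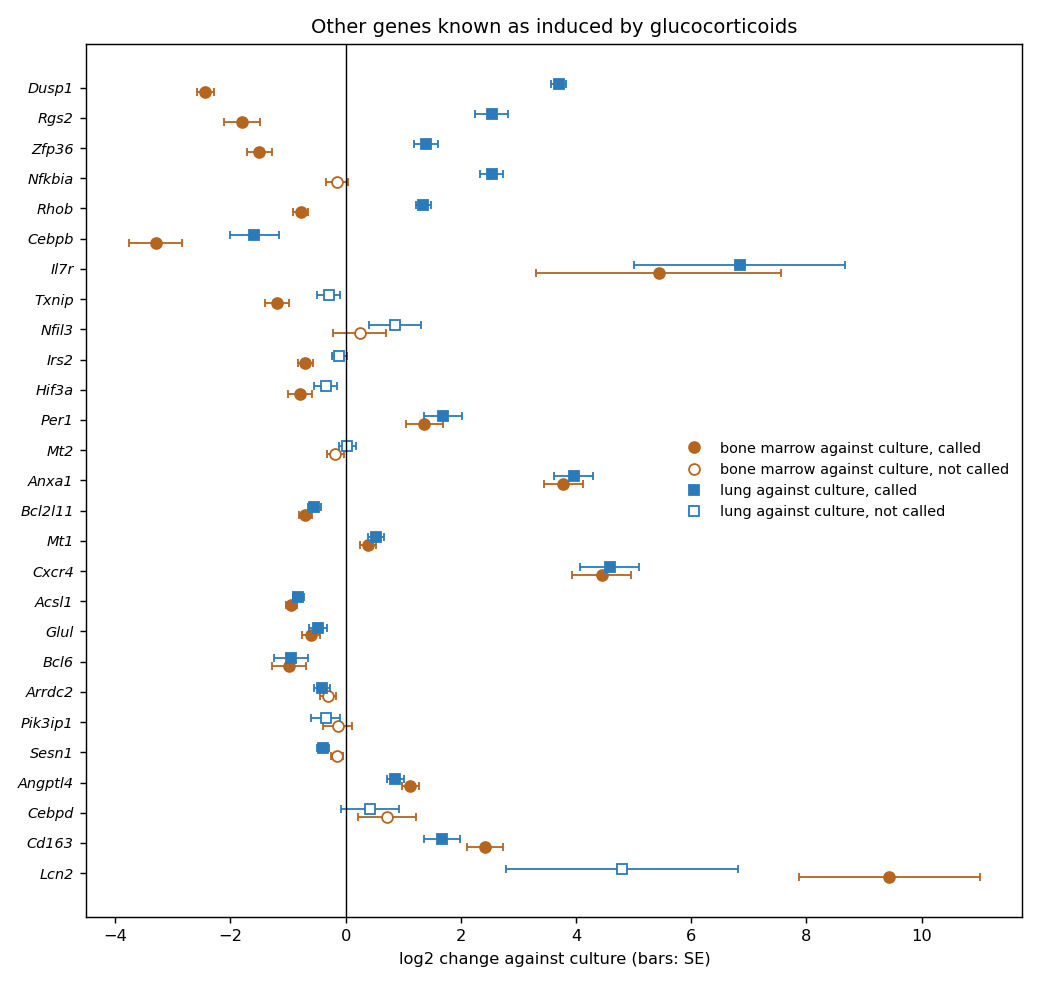
Log2 change against culture in bone marrow (circles) and lung (squares) of the 27 tested genes of the list of other glucocorticoid-induced genes, sorted by the difference between the tissues, with SE bars; filled symbols passed an adjusted p of 0.05. Dusp1 is at -2.43 and 3.70, and Anxa1 at 3.78 and 3.96.

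Immediate early genes, which respond within minutes to growth factors and to stress, also differed between the tissues. All 10 tested were higher in lung than in bone marrow (median log2 change 4.02), 10 fell in bone marrow against culture (median -2.54), and 7 rose and 1 fell in lung against culture (median 1.45; 8 and 0 without lung replicate 1 and bone marrow replicate 3, where Egr1 lost its call). Over all genes 14.2% were higher in lung than in bone marrow and 29.8% fell in bone marrow against culture. In lung against culture 27.9% of all genes rose and 27.0% fell. Fos, a subunit of AP-1, was at 14.2, 12.9 and 9.06 CPM in culture, at 0.535, 0.588 and 0.82 CPM in bone marrow and at 195, 189 and 261 CPM in lung. Lung was 8.34 above bone marrow (SE 0.25, adjusted p = 1.4e-09). Dusp1, Zfp36, Rhob and Sgk1 are themselves known to respond early to such signals. The part of this response in their levels was not tested.

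Of 12 inflammatory genes known to be repressed through the receptor, 8 were tested. Between lung and bone marrow 6 were higher in lung and 1 lower (median log2 change 2.71), and 6 rose and 0 fell in lung against culture (median 3.57, or 3.07 with the 2 genes that had 0 reads in culture set to the level of 3 reads over that group). In bone marrow against culture 2 rose and 2 fell, 25% of the list each, below the 30.7% and 29.8% of all genes. Between lung and bone marrow 14.2% of all genes were higher and 11.1% lower in lung. In lung against culture 27.9% of all genes rose and 27.0% fell. Cxcl2, a chemokine for neutrophils, was at 14.2 ± 3.8 CPM in lung, 0.166 ± 0.0693 CPM in bone marrow and 0.127 ± 0.0573 CPM in culture (SD, n = 3; lung against culture 6.78, SE 0.36, adjusted p = 8.4e-09). Mmp9, a protease of neutrophil granules, was in bone marrow at 5.83, 13.4 and 64 CPM (replicates 1 to 3), again in the order of the neutrophil sums.

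Coregulators that the bound receptor recruits were measured too. Of 12 tested, 7 fell and 1 rose in bone marrow against culture (29.8% and 30.7% of all genes). In lung against culture 1 rose and 1 fell (27.9% and 27.0% of all genes). Between the tissues 5 were higher and 0 lower in lung than in bone marrow (14.2% and 11.1% of all genes). Nrip1, a corepressor of nuclear receptors, was at 242 ± 1.37 CPM in lung, 172 ± 13.6 CPM in bone marrow and 270 ± 15.6 CPM in culture (lung against bone marrow 0.50, SE 0.08, adjusted p = 8.7e-04). Ncoa1 and Ncoa3, coactivators of the p160 family, were 0.44 (SE 0.10, adjusted p = 0.0083) and 0.49 (SE 0.11, adjusted p = 0.0071) higher in lung than in bone marrow. Hdac3, the deacetylase of the corepressor complex, was the 1 that rose in both tissues against culture, by 0.57 in bone marrow (SE 0.07, adjusted p = 8.4e-06) and 0.44 in lung (SE 0.07, adjusted p = 1e-04).

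Genes that set a cell's access to steroid were measured as well. Hsd11b1, which regenerates active glucocorticoid inside cells, and the mineralocorticoid receptor gene Nr3c2 were singled out after their values were seen. Hsd11b1 had 0 reads in culture and 240 in bone marrow, at least 66-fold the level of 3 reads over the culture group, and 80 in lung, at least 23.3-fold that level. Without bone marrow replicate 3, which held 176 of its reads, the bound for bone marrow was 28.4-fold, and without lung replicate 1 that for lung was 14.5-fold. Its bone marrow libraries stood at 0.476, 1.49 and 4.37 CPM and its lung libraries at 1.28, 0.522 and 0.474 CPM, highest in the libraries with the most RNA of other cells. Nr3c2 had 36, 2 and 17 reads in culture, bone marrow and lung, with a lung to bone marrow ratio of 8.98 (95% counting interval 2.13 to 80.1, exact binomial). The interval covers counting error only, and lung replicate 1 held 9 of the 17 lung reads. With all libraries the fit placed Nr3c2 in lung 2.92 above bone marrow, which was called. Without lung replicate 1 and bone marrow replicate 3 the value was 2.79 (SE 1.135, adjusted p = 0.095), not called. H6pd, which supplies the cofactor of HSD11B1, was at 87.1 ± 6.55 CPM in culture and fell by 0.23 (SE 0.09, adjusted p = 0.033) in bone marrow and by 0.27 (SE 0.09, adjusted p = 0.019) in lung. Both calls were lost without lung replicate 1 and bone marrow replicate 3 (adjusted p = 0.11 and 0.053).

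In RefSeq's table of start windows, 14 windows belonged to 6 of the members. The half-site AGAACA, searched on both strands, was in 4 of these 14 and in 19.0% of all 32851 windows. ACGTG was in 5 of the 14, those of Ddit4, Fkbp5, Klf9, Sgk1 window 5 and Errfi1 window 2. The E-box CACGTG, which contains ACGTG, was in 2 of the 14 (Fkbp5 at position -169 and Sgk1 window 5, where it overlaps the half-site at -242) and in 7.15% of all windows. The AP-1 motif TGANTCA was in 1, that of Klf9 at position -89, and in 7.81% of all. The cyclic AMP element TGACGTCA was in 1, Errfi1 window 2 at position -51, and in 1.79% of all. A match describes letters in the window and not a bound site.

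The genes whose log2 level ran closest to each member over the 9 libraries were found among tested genes of at least 10 CPM, by Pearson's r of log2(CPM + 0.5), as a description. All points share library and group, and the difference between groups dominates the likeness. Nr3c1 ran closest to Clic4 (r = 0.9964), which stood at 1470 CPM (culture), 614 CPM (bone marrow) and 752 CPM (lung). Tsc22d3 ran closest to Kpna1 (r = 0.9692), and next but one was the listed target Rhob (r = 0.9636). Fkbp5 ran closest to Kpnb1 (r = 0.9807), Sgk1 to Sptan1 (r = 0.9799) and Klf9 to Phip (r = 0.9856). Ddit4 ran closest to Cdkn1a (r = 0.9895), the cell cycle inhibitor p21, at 34.7, 1.64 and 16.5 CPM. The closest genes to the thinly counted Zbtb16 and Errfi1 were Ncstn (r = 0.8630) and Sbf1 (r = 0.9233).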

How the data were processed

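Total RNA of 9 samples was isolated with a micro column kit, amplified with SMART-seq v4 and made into libraries with ThruPLEX, per the labels' protocols. The authors used bcl2fastq, STAR and the mm10 build, per the submitters' processing notes. The authors deposited unnormalized read counts, 1 value per gene symbol. The tool, annotation and strand setting of the counting were not given in the sources used here. Positions, exon lengths and overlaps come from GENCODE M21 (GRCm38), and no exon of a member overlapped another gene's.

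Counts of 15066 genes kept by filterByExpr, out of 55291 listed and 30802 with reads, were scaled with TMM (factors 0.966 to 1.039) and fitted in 1 edgeR 4.0.16 quasi-likelihood model of all 9 libraries in R 4.3.3, without covariates. A gene was called at a Benjamini-Hochberg adjusted p under 0.05 over all genes. Every adjusted p is from this fit, except those given as without lung replicate 1 and bone marrow replicate 3. Those are from the same model fitted without these 2 libraries. Shares over all genes are from the fit of all 9 libraries. List counts without these 2 libraries have no such share beside them, and nothing is read from them. CPM are on scaled library sizes. The pipeline was checked on simulated counts. No 2 libraries were duplicates.

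The members and all gene lists were chosen with earlier results of these data known. Besides the members and their nearest genes, genes were named by a rule: up to 4 called genes per direction and list with the largest change at 10 CPM or more, or the most abundant gene. The rule does not cover, among others, Fkbp4, Rhob, Icam1, Gata1, Cebpa and Cd33, nor Bnip3 and Ankrd37 between lung and bone marrow.

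Residuals of same-numbered bone marrow and lung libraries correlated at 0.122, 0.362 and 0.126 over all tested genes, and differently numbered ones at -0.286 to 0.113. The labels state no pairing, and replicate number was also used as a block because of these correlations, which come from the same counts. Bone marrow replicate 3 with lung replicate 1 stood at 0.113, close to the 0.122 and 0.126. Calls and SE under the block are thus a description and no independent support. Culture libraries did not pair (-0.072 to 0.001). Alternatives were other scalings, filters and tools (DESeq2 1.42.0, limma 3.58.1 voom), fits of 6 libraries, the block and leaving out libraries. Of the genes tied to steroid access, 1 is not reported here, nor are counts over that list.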

Additional observations from a re-analysis of the deposited data

Results flagged for a closer look

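Tsc22d3, Dusp1, Rgs2, Zfp36 and Rhob changed against culture in opposite directions in the 2 tissues, each past the threshold. They were found by a search of the members and the other glucocorticoid-induced genes listed. How many of all genes tested did so was not counted, so nothing is read from their number. The pattern was not limited to these genes. The 7 immediate early genes that rose in lung against culture were all among the 10 that fell in bone marrow. Of these, Fos was at -4.19 in bone marrow and 4.16 in lung, Jun at -1.99 and 2.13, and Nr4a1 at -2.74 and 1.20. Icam1, of the list of repressed genes, was at -1.55 and 1.34. These opposite directions already fix the sign of the difference between lung and bone marrow, which is given as a size and not as a further test. Tsc22d3, chosen with this pattern known, was at -0.99 in bone marrow and 1.07 in lung, a difference of 2.06 (SE 0.19). Dusp1 was at -2.43 and 3.70, a difference of 6.13 (SE 0.16). Rgs2 was at -1.80 and 2.54, a difference of 4.33 (SE 0.32). Zfp36 was at -1.50 and 1.39, a difference of 2.89 (SE 0.23). Rhob, which encodes a small GTPase of the cytoskeleton, was at -0.78 and 1.35, a difference of 2.13 (SE 0.13). All values are log2 changes of the edgeR fit, with the culture libraries shared by both tissues.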

How the results depend on the processing

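Calls of Tsc22d3, Ddit4 and Klf9, and of Nr3c1 and Fkbp5 in lung against culture and Nr3c1 in bone marrow against culture, stayed on their side of the threshold with their sign in every alternative run, except that Klf9 in lung against culture (0.03, not called) became -0.002 without culture replicate 2, -0.004 without lung replicate 1, -0.003 without lung replicate 3 and -0.001 without lung replicate 1 and bone marrow replicate 3. Sgk1 in bone marrow against culture turned from -0.21 to 0.10 (0.099 without bone marrow replicate 3, 0.102 without lung replicate 1 and bone marrow replicate 3). Zbtb16 in lung against bone marrow turned from 0.89 to -0.195 without those 2 libraries. Leaving out 1 library each, these 3 values ranged from -0.004 to 0.070, -0.453 to 0.099 and 0.103 to 1.192. The cause was not tested. Fkbp5 in bone marrow against culture was not called without any 1 of the culture replicates (0.42, 0.42 and 0.49) or without bone marrow replicate 1 (0.25).

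Leaving out 1 library, members called ranged from 3 to 6 (lung against bone marrow), 4 to 5 (bone marrow against culture) and 5 to 6 (lung against culture), and other induced genes called from 7 to 13, 19 to 21 and 18 to 22. The share of all genes is not given for each of these fits or the blocked fits below. Nothing is therefore read from the counts of members and other induced genes. All genes called between lung and bone marrow numbered 3806, and 2414 (without lung replicate 2) to 4760 (without bone marrow replicate 1) when 1 library was left out, with 2473 without bone marrow replicate 2. They numbered 2381 in a fit of the 6 libraries alone. With the replicate number as a block over 9 libraries, members called were 4, 6 and 5 and other induced genes 9, 19 and 20 in the 3 comparisons. Zbtb16 in bone marrow against culture (-1.23, SE 0.45) was then called, as it was without the low-count filter (-1.19), with limma-voom (-1.40), in the 6 libraries alone (-1.19) and without culture replicate 3 (-1.45). The block over the 6 tissue libraries gave 6 members, 12 other induced genes and 4553 genes in all. The leave-out of lung replicate 1 and bone marrow replicate 3 and the latter block were added after the data were seen. Zbtb16 and Errfi1 are limited by depth.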

Other observations

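Relatives and partners of the members were listed as well. Of 6 tested paralogs, 4 were higher in lung than in bone marrow and 0 lower (14.2% and 11.1% of all genes). Without lung replicate 1 and bone marrow replicate 3, 2 were higher. Tsc22d1 was at 49 ± 3.35 CPM in lung, 31.3 ± 3.81 CPM in bone marrow and 32.1 ± 2.39 CPM in culture (SD, n = 3; lung against bone marrow 0.65, SE 0.11, adjusted p = 0.0013), and Tsc22d2 was 0.70 higher in lung than in bone marrow (SE 0.11, adjusted p = 9.5e-04). Sgk3, the paralog of Sgk1 that is tied to endosomes, fell in both tissues, from 101 ± 6.86 CPM in culture by 1.10 in bone marrow (SE 0.10, adjusted p = 9.9e-07) and by 0.96 in lung (SE 0.10, adjusted p = 4.7e-06).

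Of 10 tested genes that act with SGK1, REDD1 or MIG6, 1 rose and 6 fell in bone marrow against culture (30.7% and 29.8% of all genes). In lung against culture 2 rose and 5 fell (27.9% and 27.0% of all genes). In lung against bone marrow 2 were higher (1 without lung replicate 1 and bone marrow replicate 3). That is 20% of the list, near the 14.2% of all genes. Foxo3, a transcription factor that SGK1 and AKT inactivate, fell by 1.52 in bone marrow (SE 0.13, adjusted p = 3.4e-07) and by 1.26 in lung (SE 0.13, adjusted p = 2.3e-06). Akt1 rose by 0.43 in bone marrow (SE 0.09, adjusted p = 0.0011) and by 0.66 in lung (SE 0.09, adjusted p = 3.7e-05). Pdpk1, the kinase that activates both SGK1 and AKT, was 0.41 higher in lung than in bone marrow (SE 0.08, adjusted p = 0.0038). It was called lower than culture in both tissues, at -0.65 in bone marrow and -0.25 in lung. Egfr, a receptor that MIG6 inhibits, was at most 0.0366 CPM in any group mean. It was named after its value was seen.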
